A study of Mus musculus with 26 samples.

Results

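The mir-124 precursors are the 3 miRNA entries mmu-mir-124-1, mmu-mir-124-2 and mmu-mir-124-3 (mir-124-1, mir-124-2 and mir-124-3 below) of a small RNA count table from the mouse hippocampus, taken by name from 1360 entries in all, of which 1054 are miRNAs. They stand for 3 hairpins at 3 loci that give rise to the same mature miRNA, miR-124. A miRNA gene is transcribed into a long primary RNA, from which a hairpin is cut and then trimmed to a mature strand that guides the silencing complex to mRNAs with a match to its seed. miR-124 is known as one of the most abundant miRNAs of neurons, where it keeps down transcripts of non-neuronal cells such as Ptbp1, a splicing repressor, and Ctdsp1, a phosphatase of the REST complex that silences neuronal genes.

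The study asked whether miRNAs change after acute stress (a forced swim in cold water). Libraries came from the dorsal hippocampus (dHC) and the ventral hippocampus (vHC), with both hemispheres taken, of male C57BL/6J mice 2 to 3 months old. Control mice stayed in their homecage, and swim mice were placed for 6 min in water of 18 °C and were sampled 45 mins after the start of the swim. Of the 26 libraries, 14 were vHC (8 from control and 6 from swim mice) and 12 were dHC (6 from either). The labels also give 3 blocks by date, called block 1, 2 and 3 here in order of date, and each block held libraries of all 4 groups. The labels do not say which libraries came from the same mouse, so p-values measure the spread between these libraries. Expected miRNA counts, from sequences collapsed by their molecular tag, summed to between 465387 (control dHC library 24) and 4819724 (swim dHC library 28) per library.

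The 3 hairpins lie on different chromosomes in the GENCODE vM21 annotation of GRCm38, all on the plus strand and none in a coding gene. Mir124a-1 (mir-124-1) is at chromosome 14, 64590657 to 64590741, within the lincRNA gene Mir124a-1hg, where an exon of 1 transcript holds the whole hairpin and an exon of another covers part of it. Mir124a-2 (mir-124-2) is at chromosome 3, 17795662 to 17795770, within the lincRNA gene Mir124-2hg, and an exon of only 1 of the 6 transcripts that overlap it covers part of the hairpin. Mir124a-3 (mir-124-3) is at chromosome 2, 180894040 to 180894107, and its last 3 bases overlap the exon of the lincRNA Gm27032.

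The 3 entries carried nearly the same count in every library. Over all libraries, mir-124-1 had an expected count of 945680, mir-124-2 of 945546 and mir-124-3 of 945503. Within a library the highest and the lowest entry differed by 0 to 17.5 counts (median 6.75), at most 0.0352% of their mean. The 3 entries summed to a whole number in 26 of 26 libraries (tolerance 0.03), while single entries carried decimals. In control dHC library 8, for example, the entries held 61552, 61539.5 and 61534.5 counts. The level of a single locus is therefore uncertain, and values below are for mir-124-1, which stands for all 3 entries, and for their sum.

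A small surplus of mir-124-1 remained. It stood above both other entries in 22 of 26 libraries, equalled them in 1 (control dHC library 24) and was below mir-124-2 in 3. Summed over libraries, the surplus was 134.5 counts over mir-124-2 and 177 counts over mir-124-3, out of 2836730 mir-124 counts. mir-124-2 was above mir-124-3 in 16 libraries, equal to it in 5 and below it in 5.

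Other miRNAs with several precursor entries are shown for contrast, since what their hairpins share differs. mir-9 and mir-128 are, like mir-124, miRNAs of neurons. The 3 mir-9 hairpins give the same product from either arm, whereas the 2 mir-128 hairpins share 1 arm and differ in the other. The mature sequences from RefSeq (GRCm38.p6) are given with the seed, bases 2 to 8, in capitals.
miR-9-5p (Mir9-1, chr3:88215613-88215635, plus strand): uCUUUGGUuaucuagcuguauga
miR-9-3p (Mir9-1, chr3:88215652-88215673, plus strand): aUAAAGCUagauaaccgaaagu
miR-128-3p (Mir128-1, chr1:128202404-128202424, plus strand): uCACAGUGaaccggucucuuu
miR-128-1-5p (Mir128-1, chr1:128202369-128202389, plus strand): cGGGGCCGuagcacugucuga
miR-128-2-5p (Mir128-2, chr9:112118679-112118701, minus strand): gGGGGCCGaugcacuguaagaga
The spread between entries had a median over libraries of 0.0197% of the mean for mir-124 and 0.141% for mir-9, and of 22.6% for mir-128 (15.3% to 26.8%). The other miRNAs of the neuronal list that have several entries lay between these, from 2.67% for mir-129 to 12.4% for mir-138.

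**Figure D1:**
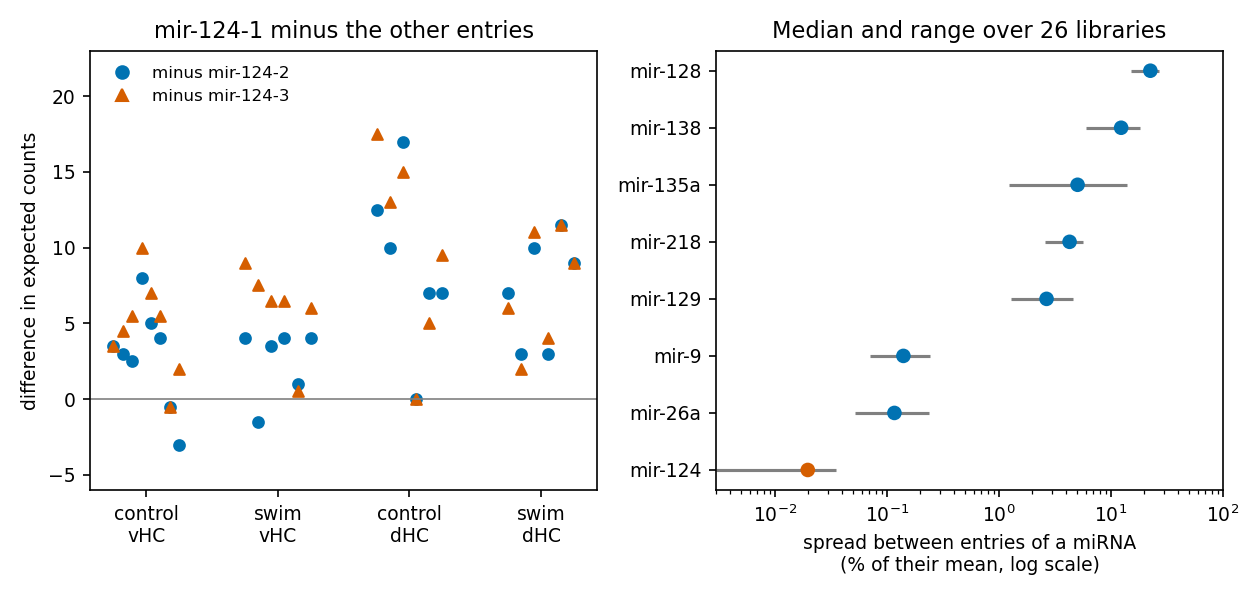
Left, difference in expected counts between mir-124-1 and each other entry in the 26 libraries by group, with 1 circle and 1 triangle per library. Right, spread between the entries of a miRNA as a percentage of their mean (log axis), with the point at the median and the line over the range of 26 libraries; mir-124 has the lowest median of the 8 miRNAs drawn, 0.0197%, and its line is cut at the axis because its lowest value was 0.

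mir-124 was among the most abundant miRNAs of the hippocampus. The 3 entries summed made up 4.27% ± 0.844 (SD, n = 26) of the miRNA counts of a library, from 3.14% (control vHC library 25) to 6.91% (swim dHC library 6). With the entries of each miRNA summed, it was the fourth in mean share, behind mir-9 (11.7% ± 1.38), mir-26a (5.64% ± 0.761) and mir-128 (4.30% ± 0.627), and ahead of mir-125b (3.58% ± 0.705) and let-7a (3.36% ± 0.519). mir-26a is found in many tissues, and mir-125b and let-7a are known from developmental timing. The order with its neighbours was not stable. mir-124 was above mir-128 in 13 of 26 libraries, above mir-125b in 15, above let-7a in 21 and above mir-26a in 3, and its rank in a library was between 2 and 7. The mean difference from mir-128 was -0.0358 percentage points with an SD of 1.38, well within the spread between libraries, whereas mir-9 was above mir-124 in 26 of 26 libraries.

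Counting error was small beside the spread between libraries. In the shallowest library, control dHC library 24, the share was 4.04%, with a 95% Wilson interval from 3.98% to 4.09%. In swim dHC library 6, where the share was 6.91%, the interval was 6.88% to 6.95%. These intervals cover counting error only.

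The share of mir-124 in swim libraries overlapped that in control libraries in either region. In control vHC the share was 3.14% at the lowest, 3.73% at the median and 4.99% at the highest (mean 4.01% ± 0.675, SD, n = 8). In swim vHC it was 3.26%, 4.09% and 4.80% (mean 4.06% ± 0.539, SD, n = 6). In control dHC it was 3.55%, 4.19% and 5.99% (mean 4.52% ± 0.888, SD, n = 6). In swim dHC it was 3.64%, 4.22% and 6.91% (mean 4.57% ± 1.23, SD, n = 6). All 4 ranges overlapped, and the highest value, swim dHC library 6, stood apart from its own group, where the next highest was 4.75%. In bulk tissue, fewer neurons and less miR-124 per neuron cannot be told apart.

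**Figure D2:**
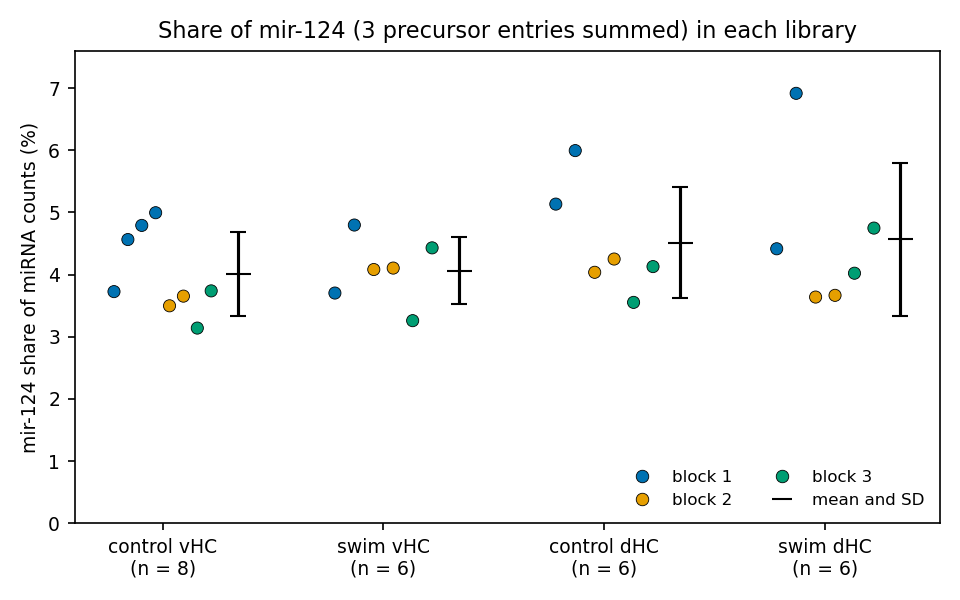
Share of miRNA counts taken by mir-124, 3 entries summed, in percent, with 1 point per library coloured by block and the mean ± SD of each group beside it. The groups overlap, most points of block 1 lie above those of blocks 2 and 3, and swim dHC library 6 is the highest at 6.91%.

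Swim stress left no detectable difference in mir-124 at 45 mins. Between swim and control mice the mean share differed by 0.0495 percentage points in vHC (two-sided exact permutation p = 0.887, adjusted over 4 comparisons p = 0.931) and by 0.0514 in dHC (exact permutation p = 0.931, adjusted p = 0.931). The direction was not the same in every block. For blocks 1, 2 and 3 in turn, the difference was -0.269, 0.518 and 0.406 percentage points in vHC and 0.101, -0.491 and 0.544 in dHC.

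The model over all miRNA entries gave the same picture for swim against control. edgeR's quasi-likelihood test was fitted to the 463 entries that passed a filter on low counts, all 3 mir-124 entries among them. Its terms were stress, region, the interaction of both, and also 2 surrogate variables (axes of variation estimated from the counts). Block held 72.7% of the variance of the first surrogate variable. Region held 91.1% of that of the second, so the stress fits carried an axis close to region beside region itself. Of the 463 entries, 0% passed the adjusted threshold of 0.05 (0 entries) and 3.46% (16 entries) had an unadjusted p under 0.05 when stress and interaction were tested together, and DESeq2 also called 0 (16 with an unadjusted p under 0.05). For mir-124-1 that p was 0.978 (edgeR, adjusted p = 0.995), and the other entries did not pass either.

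Within vHC the log2 difference of mir-124-1 between swim and control was -0.0035 (SE 0.11), with a 95% confidence interval from -0.23 to 0.23, or from -14.9% to 16.9% (edgeR, adjusted p = 0.9996). Within dHC it was -0.03 (SE 0.12), with an interval from -0.27 to 0.22 or -17.1% to 16.4% (edgeR, adjusted p = 0.9992). The interaction of region and stress was -0.02 (SE 0.16, interval -0.35 to 0.31, edgeR adjusted p = 0.995). Called entries were 0% in each of these tests, and entries with an unadjusted p under 0.05 were 7.34% in vHC, 3.67% in dHC and 4.97% for the interaction. DESeq2 called 0 as well, with 39, 18 and 20 entries at an unadjusted p under 0.05. The standard errors of mir-124-1 were below the medians over all entries, 0.14 in vHC and 0.15 in dHC. For the sum of the 3 entries, fitted on a table of 401 miRNAs of which 0% were called, the log2 difference was 0.03 in vHC, -0.04 in dHC and -0.06 for the interaction. None of these values differed from 0 by more than the error, and their sign depended on the processing.

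**Figure D3:**
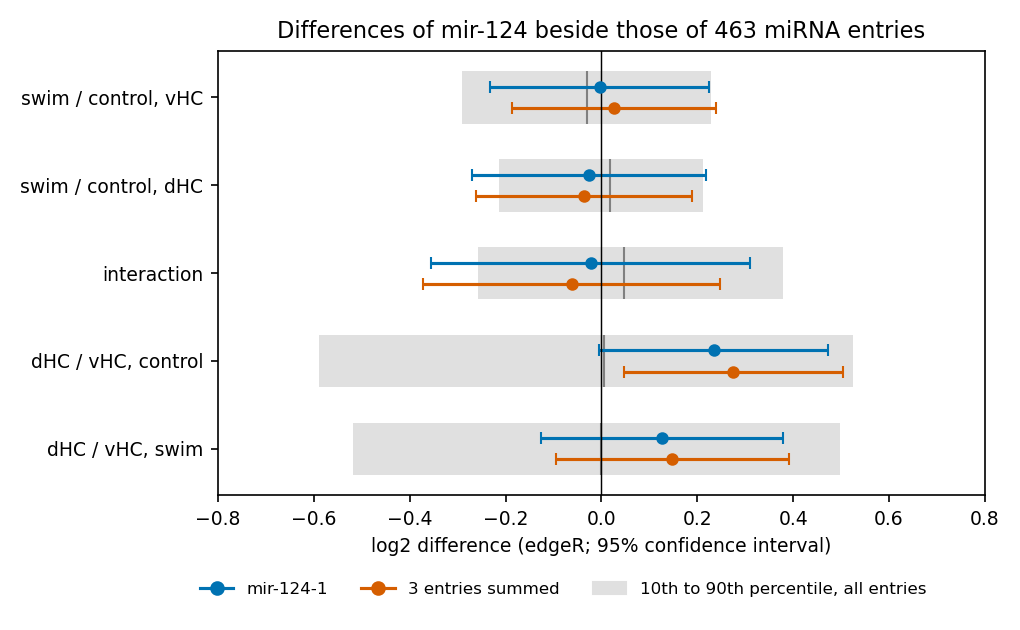
Log2 differences of mir-124-1 (blue) and of the 3 entries summed (orange) with 95% confidence intervals from edgeR, for swim over control in each region, the interaction, and dHC over vHC in each condition. The grey bars span the 10th to 90th percentile over 463 miRNA entries with a line at the median; the stress intervals are centred near 0, and in control mice the interval of the sum (0.05 to 0.50) lies above 0 while that of mir-124-1 reaches -0.0041.

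mir-124 was higher in dHC than in vHC of control mice in the mean, without passing the adjusted threshold. Region was tested in edgeR with block as a covariate, because a surrogate variable followed region (region held 91.1% of its variance). In control mice, mir-124-1 had a log2 difference of 0.23 (SE 0.12, 95% confidence interval -0.0041 to 0.47) for dHC over vHC, a level 17.6% higher (edgeR adjusted p = 0.137). For the sum it was 0.28 (SE 0.11, interval 0.05 to 0.50, edgeR adjusted p = 0.0680). The 3 entries counted 0 calls, against 22.5% of entries called in this comparison (104 of 463), of which 36 (7.78%) were higher and 68 (14.7%) lower in dHC. With copies summed, 25.4% of 401 miRNAs were called. With DESeq2's size factors 66 of 130 called entries were higher, so that the split between directions depended on the scaling. The mir-124 result lay at the threshold under such choices: the adjusted p was 0.0510 for mir-124-1 with DESeq2's size factors in edgeR, 0.0410 with the DESeq2 test, and 0.0438 for the sum with DESeq2's size factors, and over all alternatives run for mir-124-1 and the sum it was between 0.0410 and 0.918. The log2 difference was above 0 in all of them, between 0.09 and 0.32, and was 0.17 without control dHC library 24.

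In swim mice the log2 difference for dHC over vHC was 0.13 for mir-124-1 (SE 0.12, interval -0.13 to 0.38, edgeR adjusted p = 0.525) and 0.15 for the sum (SE 0.12, edgeR adjusted p = 0.403). Of all entries, 20.3% were called here (94 of 463, with 7.56% higher and 12.7% lower in dHC), and 0 of the 3 mir-124 entries, against 22.2% with copies summed. This value rested on swim dHC library 6, without which it was -0.01 for mir-124-1. The difference in share was 0.503 percentage points in control mice (exact permutation p = 0.252, adjusted p = 0.931) and 0.505 in swim mice (exact permutation p = 0.489, adjusted p = 0.931). Both rested in part on single libraries, with 0.207 in control mice without control dHC library 8 and 0.0354 in swim mice without swim dHC library 6. In control mice dHC was higher in all 3 blocks, by 1.05, 0.568 and 0.402 percentage points. In swim mice it was higher in blocks 1 and 3, by 1.42 and 0.541, and lower in block 2, by -0.441.

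Lists of miRNAs known from other cell types were read in the same region fit for control mice, where 22.5% of all entries were called. The lists are short, and their part in the mir-124 values was not tested. Of the oligodendrocyte miRNAs, 3 of 3 tested entries (of 4 listed) were called higher in dHC of control mice, and the summed level of the list was 3371 to 5014 CPM in control vHC and 4612 to 7385 CPM in control dHC. Of 5 astrocyte entries 2 were called higher (28050 to 35637 in control vHC, 35964 to 41852 in control dHC). Of 8 choroid plexus entries 5 were called higher and 3 lower (2677 to 3827, and 2787 to 6639). Of 4 erythroid entries 2 were called lower, and 0 of 5 immune and 0 of 3 endothelial and mural entries were called in edgeR (1 and 0 with an unadjusted p under 0.05). With the DESeq2 test 1 immune entry was called higher in dHC and 0 endothelial and mural entries were called.

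The list of neuron-enriched miRNAs, which includes the 3 mir-124 entries, showed no common direction by region. Of 27 entries on the list, all tested, 2 were called in control mice, where 22.5% of all entries were, and both were lower in dHC: mir-433 by -0.88 (SE 0.10, log2, edgeR adjusted p = 1.97e-07) and mir-485 by -0.83 (SE 0.13, edgeR adjusted p = 1.58e-05). mir-433 and mir-485 belong to the large imprinted miRNA cluster of the Dlk1-Dio3 region. The median log2 difference over the list was -0.02, and over all entries 0.0055. The count of calls depended on the tool, with 8 in the DESeq2 test, 6 of them higher in dHC. The 3 mir-124 entries were among these 6. In swim mice 8 of the 27 entries were called, 6 lower and 2 higher, beside 20.3% of all entries. The 5 with the smallest p were all lower, mir-433 by -0.69, mir-485 by -0.64, mir-135a-2 by -0.55, mir-135a-1 by -0.54 and mir-410, also of the imprinted cluster, by -0.53. The 2 higher entries, mir-129-1 and mir-129-2 (0.46 each), stand for 1 miRNA, as do mir-135a-1 and mir-135a-2. For swim against control, 0 of the 27 entries were called in either region (edgeR, 1 with an unadjusted p under 0.05 in vHC and 0 in dHC).

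**Figure D4:**
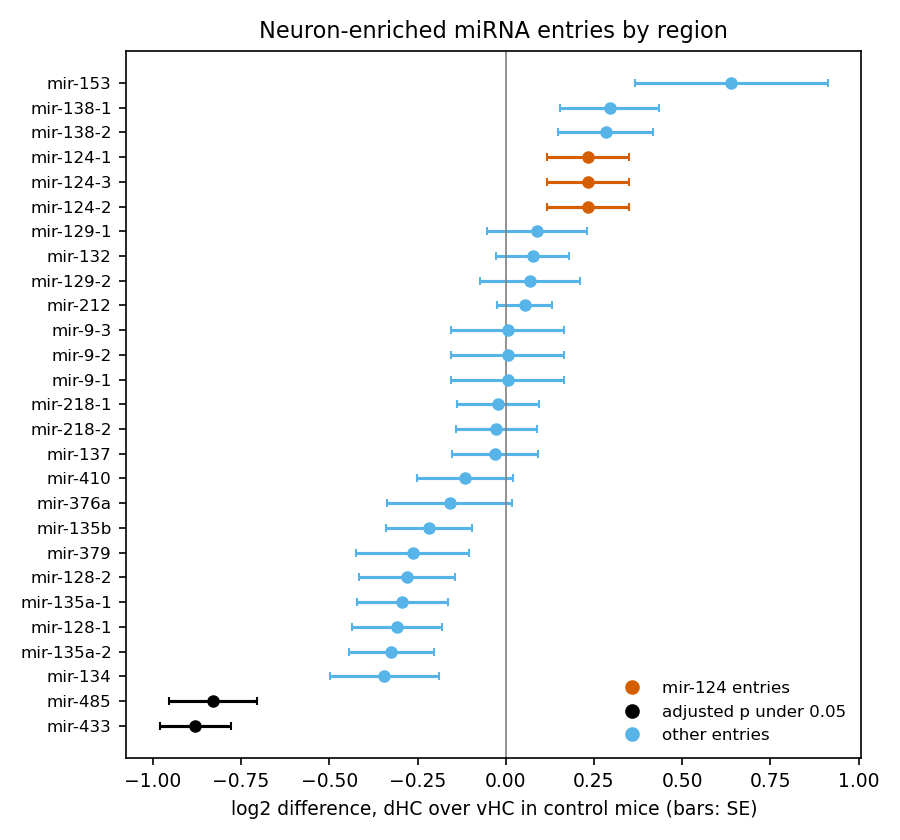
Log2 difference between dHC and vHC in control mice for the 27 neuron-enriched miRNA entries, with bars of 1 SE from edgeR. The 3 mir-124 entries (orange) lie at 0.23, and the 2 entries that passed the adjusted threshold (black), mir-433 and mir-485, lie at -0.88 and -0.83.

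mir-124 fell between block 1 and the later blocks. The 10 libraries of block 1 had a mean share of 4.90% ± 0.972 (SD), the 8 of block 2 one of 3.87% ± 0.281 and the 8 of block 3 one of 3.88% ± 0.561. The lowest, median and highest shares were 3.70%, 4.79% and 6.91% for block 1, then 3.50%, 3.85% and 4.25% for block 2, and lastly 3.14%, 3.88% and 4.75% for block 3, so that the ranges overlapped. In edgeR, mir-124-1 was lower in block 2 than in block 1 by -0.33 (SE 0.10, log2), that is by -20.7%, and lower in block 3 than in block 1 by -0.37 (SE 0.10), with an adjusted p of 0.00435 for both coefficients together. Block 3 and block 2 differed by -0.03, less than either SE. All 3 mir-124 entries were called, against 53.1% of all entries (246 of 463), of which 140 (30.2%) were lower and 101 (21.8%) higher in both later blocks, and the sum was called as well (edgeR adjusted p = 0.00917, 56.6% of 401 miRNAs called). With DESeq2's size factors 138 of 258 called entries were higher in block 2 than in block 1. A call on block was therefore common among miRNAs. The adjusted p stayed between 0.000602 and 0.0343 in all alternatives run.

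Of the 27 neuron-enriched entries, 15 were called by block, 12 lower and 3 higher in block 2 than in block 1. The share called, 15 of 27, was near the 53.1% of all entries. The 12 of 27 lower stood beside 30.2% of all entries lower in both later blocks, and the 3 higher beside 21.8%. The 12 lower entries include the 3 of mir-124 itself, which carry nearly the same counts. They also include mir-135a-1 with mir-135a-2, and mir-129-1 with mir-129-2, each pair from 1 miRNA. The smallest p were those of mir-135a-2, mir-135a-1 and mir-135b, at -1.06, -1.14 and -1.07, followed by mir-410 at -0.91 and mir-153 at -1.49 (log2, edgeR). The fall of mir-124-1 from block 1 to block 2, -0.33, was smaller than any of these, which were picked by smallest p. Among other list entries called lower, mir-379 fell by more (-0.73). mir-137 was near mir-124-1 (-0.37), and mir-129-1 fell by less (-0.21). Among the other lists, the members called by block went in both directions. Of 3 oligodendrocyte entries 1 was called higher (3 with the DESeq2 test), as were 1 of 5 astrocyte entries (3 with the DESeq2 test) and 1 of 3 endothelial and mural entries. Of 8 choroid plexus entries 2 were called higher and 1 lower, and of 4 erythroid entries 2 higher and 1 lower. Of 5 immune entries 2 were called lower, with a summed level of 2054 to 3480 CPM for block 1, 1317 to 2672 CPM for block 2 and 1445 to 2634 CPM for block 3. Their part in the mir-124 difference was not tested. The date of a block and anything else that changed with it cannot be told apart.

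The level of mir-124 was lower in libraries with more rRNA fragments. Fragments of rRNA made up 4.29% ± 0.667 (SD) of all small RNA counts for block 1, while the later blocks had 5.41% ± 0.579 and 6.33% ± 0.615. Over the 26 libraries, log2 CPM (counts scaled to a common library total) of summed mir-124 had Pearson's r = -0.71 with the rRNA share (permutation p = 3.00e-05, adjusted over 3 relations p = 9.00e-05) and Spearman's rho = -0.67 (permutation p = 0.000310, adjusted p = 0.000930). Without control dHC library 8 and control vHC library 25, the farthest from the median rRNA share, r was -0.63. Taken block by block, r was -0.58 (block 1, n = 10), -0.88 (block 2, n = 8) and -0.19 (block 3, n = 8), and without control dHC library 24 the value of block 2 was -0.62 (n = 7). The relation was thus weak in block 3. The permutations exchanged libraries across blocks, so their p-values do not separate this relation from the difference between blocks. The rRNA share did not separate the groups, with means from 5.05% in control dHC to 5.43% in swim dHC.

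**Figure D5:**
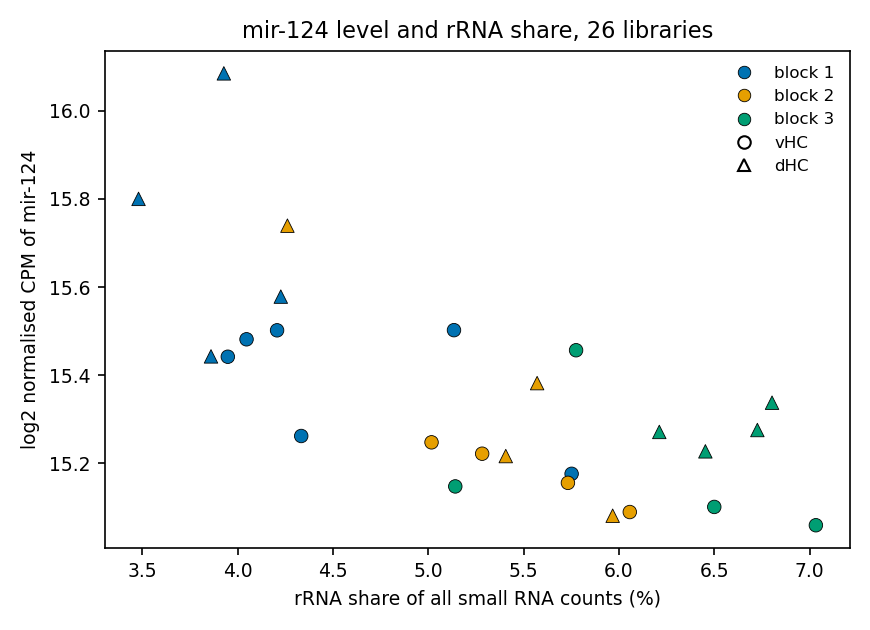
Normalised level of summed mir-124 (log2 CPM) against the rRNA share of all small RNA counts (percent), with 1 point per library, circles for vHC, triangles for dHC and colours for blocks. Libraries of block 1 sit mostly at low rRNA share and high mir-124, and the relation over all 26 libraries has r = -0.71.

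Depth itself showed no clear relation with mir-124. With the log10 total miRNA count r was -0.26 (permutation p = 0.181, adjusted p = 0.244) and rho -0.06 (permutation p = 0.787, adjusted p = 0.787), and without the deviating libraries, swim dHC library 22 and control dHC library 24, r was -0.04. Within blocks r was -0.16, -0.86 and 0.23. The -0.86 of block 2 holds control dHC library 24, whose share of mir-124 was 4.04% but whose normalised level, 54695 CPM, was the third highest after scaling. With the tRNA share r was -0.24 (permutation p = 0.244, adjusted p = 0.244) and rho -0.21 (permutation p = 0.299, adjusted p = 0.449). Without control vHC libraries 13 and 17 it was -0.46 (adjusted permutation p = 0.0362).

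The miRNAs whose levels followed that of mir-124 most closely were found over 400 other miRNAs by Pearson's r of log2 CPM over the 26 libraries, given as a description, since all values share libraries, blocks and scaling. The highest were mir-29a (r = 0.83), mir-29c (0.82), mir-22 (0.81), mir-16 (0.78) and mir-324 (0.75), while the median over all was -0.05. Of its neighbours in level, mir-9 had r = 0.17, mir-26a 0.18, mir-128 -0.41, mir-125b -0.57 and let-7a -0.34. After the means of each group within each block were subtracted, the highest were mir-652 (0.83), mir-134 (0.81), mir-770 (0.71), mir-425 (0.71) and mir-378d (0.68), and mir-29a was at 0.66. mir-134 is, like mir-124, a miRNA of neurons, but its r before the subtraction was 0.16. Other miRNAs of the neuronal list went both ways after the subtraction. mir-218 was at 0.37 and mir-138 at 0.26, while mir-132 was at -0.12 and mir-137 at -0.58. On that scale mir-9 was at 0.38 and mir-128 at -0.03.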

How the data were processed

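Small RNA was measured by sequencing (Nextflex v3 libraries) in 26 libraries. The authors trimmed reads with cutadapt (error rate 0.05, minimum length 18), kept 1 read for each combination of sequence and molecular tag, and used Sports 1.0 for quantification. Their deposited table holds expected counts, not normalized, which were rounded here before any count test. The labels name GRCm38 and give group, region and block, and 0 columns were without a sample.

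Fits used edgeR 4.0.16 under R 4.3.3 (quasi-likelihood, TMM, filterByExpr with minimum count 10 and minimum total 15), sva 3.50.0 (2 surrogate variables, region in the null model) and, as an alternative, DESeq2 1.42.0, with Benjamini-Hochberg adjustment over all entries tested. Stress was tested with surrogate variables and region with block as covariate. Precursor copies of a miRNA were also summed. Shares were compared by exact permutation, and correlations by 100000 resamples, in Python 3.11.15 with scipy 1.17.1. Precision is given by standard errors and Wilson intervals. The fitting code was tested on simulated data. No columns were identical, and no pair within a group was as close as counting noise alone would give. RefSeq sequences were matched for 10 mature forms of the mir-9 and mir-128 hairpins.

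Named were the 3 entries and their sum, neuron-enriched entries past the threshold (up to 5 by smallest p in a comparison), the 5 miRNAs with the highest r to mir-124 in either form, the 2 neighbours above and the 2 below it in mean share, and the most abundant miRNA; mir-129, mir-135a, mir-138 and mir-218 were added for their copies. To show the spread of the neuronal list, mir-132, mir-137 and mir-379 were named as well. The log2 ratios of the mir-124 copies were not tested because the copies were nearly equal in every library. The members, rule and lists were chosen with earlier results of these data known. The ratio to mir-128, the test of the mir-124-1 surplus, the joint omission of libraries 6 and 24, other scalings of the summed table and the list counts under other settings were added after seeing the data. The mRNA data of the study were not analysed here.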

Additional observations from a re-analysis of the deposited data

Results flagged for a closer look

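In swim dHC, library 6 stood apart from the 5 others in 4 measures of mir-124, by the gap to the nearest library relative to the range of the group. The share of miRNA counts was 6.915% (median of the group 4.22%), the normalised level of mir-124-1 was 24878 CPM (counts scaled to a common library total) (median 13539), that of the 3 entries summed was 69493 CPM (median 42056), and the ratio of mir-124 to mir-128 counts was 2.3043 (median 1.12). The share of mir-128 in this library, 3.00%, was the lowest of all 26. Its total miRNA count, 1649163, and its rRNA share, 3.93%, lay within the range of the other swim dHC libraries. Its tRNA share, 3.14%, was the lowest of the swim dHC libraries, and its mir-9 share, 13.7%, was the highest. The 4 values are not independent, and among the 28 sets of values tested (7 measures in 4 groups) chance flags about 1 in 20.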

How the results depend on the processing

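Direction and call held for block in every alternative run, and no stress comparison of mir-124 passed the threshold in any. Values near 0 changed sign. For mir-124-1 within vHC, where the value was -0.0035, it was 0.0263 with copies summed, 0.025 with DESeq2 size factors, 0.047 with TMMwsp, 0.0274 with counts not rounded, 0.0245 with the DESeq2 test, 0.0086 without covariates (0.0085 for mir-124-3), 0.0209 with surrogate variables from a null model of the intercept only, 0.080 with block instead of surrogate variables and 0.0360 without libraries 6 and 24. Within dHC it was 0.0274 without the filter and 0.0288 with depth as covariate, and the interaction was 0.0027 with library size over the whole table (0.0028 for mir-124-3), 0.065 without the filter and 0.046 with depth as covariate. The values of mir-124-2 and mir-124-3 were the same to 2 decimals. The cause was not tested.

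Leaving out each library in turn gave -0.048 to 0.061 for stress in vHC (from -0.047 for mir-124-2), -0.17 to 0.077 in dHC, -0.18 to 0.081 for the interaction, 0.17 to 0.29 for region in control mice, -0.014 to 0.18 in swim mice (lowest without swim dHC library 6) and -0.38 to -0.24 for block, and differences of shares of -0.0975 to 0.210, -0.418 to 0.347, 0.207 to 0.696 and 0.0354 to 0.691 percentage points. Stress in dHC turned to 0.077 without control dHC library 24, and was -0.17 without swim dHC library 6. Region in control mice passed the threshold with the DESeq2 test (0.29) and with copies summed and DESeq2 size factors (0.32). Without libraries 6 and 24 the share in dHC differed by -0.514 percentage points between swim and control. With the share in place of the scaled level, r with depth was 0.16. For the scaled level, r with the tRNA share was -0.46 without libraries 13 and 17. No library number is used in more than 1 group, but each of the 12 dHC libraries follows by 1 the number of a vHC library of the same condition and block. The labels do not say that such libraries share a mouse. Their deviations from the group means had r from -0.02 to 0.72. With the means of each group within each block subtracted instead, r was from -0.19 to 0.26. No r between other libraries is given beside these values, so they cannot decide whether a mouse was shared. For want of a label, the numbers were not taken as pairs. With them as a replicate block, an alternative chosen after seeing the data, dHC over vHC was 0.21 in control mice and 0.12 in swim mice (edgeR adjusted p = 0.187 and 0.509), with 108 and 122 entries called against 100 and 104 in the same 24 libraries without the block. The share was higher in dHC in 6 of 6 control pairs, by 0.585 percentage points (exact sign-flip permutation p = 0.0313, the smallest it can give, adjusted over 2 comparisons p = 0.0625), and in 3 of 6 swim pairs (exact permutation p = 0.375). The replicate block changed no call of mir-124. The lowest depth was 465387 counts, in control dHC library 24.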

Other observations

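The balance of mir-124 against mir-128, the miRNA nearest to it in level, needs no scaling factor and was looked at after the values were seen. mir-124 was above mir-128 in 8 of 12 dHC libraries and in 5 of 14 vHC libraries. In control mice the ratio of their counts was 1.18 ± 0.360 (SD, n = 6) in dHC and 0.857 ± 0.225 (SD, n = 8) in vHC, with an exact permutation p of 0.0606 (adjusted over 4 comparisons p = 0.242). With labels exchanged within blocks it was 0.0407 (exact permutation, adjusted p = 0.163), and dHC was higher in all 3 blocks, by 0.612, 0.284 and 0.205. In swim mice the ratio was 1.26 ± 0.549 in dHC and 0.908 ± 0.184 in vHC (n = 6 and 6, exact permutation p = 0.126). Without libraries 6 and 24 the difference in swim mice fell from 0.357 to 0.149 (dHC 1.06 ± 0.231, exact permutation p = 0.255, adjusted p = 0.511), while that in control mice was 0.380 (exact permutation p = 0.0357, adjusted p = 0.143). The mir-128 entries had log2 differences of -0.31 and -0.28 for dHC over vHC in control mice (edgeR adjusted p = 0.0781 and 0.134). Under 8 other settings mir-128-1 was called in 4 and mir-128-2 in 3, with log2 differences between -0.37 and -0.22. No comparison of the ratio passed the adjusted threshold.

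The surplus of mir-124-1 over the mean of the other entries was also compared after it had been seen. It was 9.46 ± 6.01 counts (SD, n = 6) in control dHC and 3.75 ± 3.16 (SD, n = 8) in control vHC (exact permutation p = 0.0430, adjusted over 4 comparisons p = 0.172). Per 100000 mir-124 counts it was 6.88 ± 3.64 and 3.89 ± 3.39 (exact permutation p = 0.136, adjusted p = 0.272), and in block 2 it was lower in dHC, by -2.20. In swim mice it was 7.25 ± 3.71 counts in dHC and 4.25 ± 2.05 in vHC (n = 6 and 6, exact permutation p = 0.126).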
